A study of Mus musculus with 9 samples.

Results

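The genes of the ATF6 and XBP1 branches of the unfolded protein response were followed in mouse dorsal root ganglia (DRG) after sciatic nerve transection. The 10 genes, Atf6, Ern1, Xbp1, Hspa5, Sdf2l1, Dnajb9, Dnajc3, Hsp90b1, Herpud1 and Edem1, were chosen by name as the ER stress genes beside the PERK branch, and their probes were found by RefSeq accession or by the symbol in the scanner files. They are 10 of the 20898 genes tested, and all of them passed the filter on dim probes. RNA of L3/L4 DRG of adult mice, all labelled cre.neg and jun.wt, was hybridised to 9 Agilent arrays, 4 of uninjured ganglia (labelled control) and 5 of injured ganglia (labelled lesion). The labels and the methods of the study give 3 days between transection and dissection, and 1 sentence of its results a shorter time. The methods call the controls uncrushed ganglia and describe contralateral ones for nerve crush, but neither they nor the labels name the animal behind each array, so that p-values measure only the spread between these samples. In whole ganglia, fewer cells of a type and less RNA per cell cannot be told apart.

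The lumen of the endoplasmic reticulum (ER) is where secreted and membrane proteins fold, and PERK, IRE1 and ATF6 are sensors in its membrane that respond when unfolded protein builds up. PERK, encoded by Eif2ak3, phosphorylates eIF2α and so favours translation of ATF4. IRE1, encoded by Ern1, removes a short intron from Xbp1 mRNA, which yields an active transcription factor, and ATF6 is cut in the Golgi by the site-1 and site-2 proteases, which releases its transcription factor domain. XBP1 and ATF6 drive genes of chaperones, of their partners and of ER-associated degradation (ERAD), the route that returns misfolded protein to the cytosol. The arrays read mRNA levels, so that neither the splicing of Xbp1 nor the cleavage of ATF6 was measured.

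Factors of both branches are known to bind the ER stress response element, CCAAT and CCACG separated by 9 bases, and its second form, in which ATTGG and CCACG are separated by 1 base. RefSeq promoter windows on build GRCm38.p6, from 250 bases before to 50 bases after the start site, were given for 9 of the 10 genes, all but Atf6. Both strands were searched. The promoters that held an element are shown because they place the known target sequence beside the measured genes. Each is printed up to the base before the start site, on the strand of the gene, with the elements in capitals.
Hspa5 (chr2:34771980-34772089, + strand): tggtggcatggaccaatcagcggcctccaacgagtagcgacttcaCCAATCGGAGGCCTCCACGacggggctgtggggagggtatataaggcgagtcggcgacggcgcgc
Hsp90b1 (chr10:86705445-86705674, - strand): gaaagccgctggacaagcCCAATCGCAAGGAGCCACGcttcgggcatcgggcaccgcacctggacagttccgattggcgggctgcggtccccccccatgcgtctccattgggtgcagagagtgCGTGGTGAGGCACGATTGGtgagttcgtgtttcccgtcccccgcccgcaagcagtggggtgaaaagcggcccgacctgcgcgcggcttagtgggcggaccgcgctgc
Dnajc3 (chr14:118937812-118937931, + strand): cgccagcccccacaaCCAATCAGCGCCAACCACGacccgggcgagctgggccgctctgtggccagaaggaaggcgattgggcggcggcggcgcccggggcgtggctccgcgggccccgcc
Herpud1 (chr8:94386319-94386428, + strand): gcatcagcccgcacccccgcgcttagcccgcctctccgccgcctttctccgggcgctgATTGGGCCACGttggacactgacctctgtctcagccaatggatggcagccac

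The first form ended 47 bases before the start site of Hspa5 and 87 bases before that of Dnajc3. Hsp90b1 held 1 copy on its own strand, ending 194 bases before the start site, and 1 on the opposite strand, ending 89 bases before it. That is 3 of 9 promoters, against 39 of all 32851 windows (0.119%). With 1 mismatch allowed in the CCAAT part the count was again 3, against 0.633% of all windows. The second form was found in Herpud1, ending 42 bases before the start site, and in 0.0365% of all windows, and it overlapped no first form in these promoters. The core of the XBP1 element, TGACG directly followed by TGG, was in none of the 9 windows and in 0.676% of all. The letters CCACG alone were in 8 of the 9 windows, all but that of Xbp1, and in 32.8% of all. No match says only that these letters are not in this window.

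After injury, Sdf2l1, Xbp1, Hspa5, Ern1 and Dnajb9 rose, and none of the 10 genes fell in limma, where none was lower at an unadjusted p under 0.05 either. The rises were small, the largest being the 1.45-fold rise of Sdf2l1. Hsp90b1, Dnajc3, Atf6, Herpud1 and Edem1 did not pass the test. Thus 5 of 10 genes were called higher at a limma adjusted p under 0.05, beside 25.4% of all genes tested (11.5% higher and 13.9% lower). In 4 of them, Sdf2l1, Xbp1, Ern1 and Dnajb9, every injured array lay above every uninjured array, where 23.9% of all genes had groups that did not overlap in either direction. The median log2 fold change of the 10 genes was 0.13, and that of all genes tested was 0.00. None of the 10 changed by more than 1.5-fold, as 6.52% of all genes did. Atf3 and Sprr1a, known to be switched on in axotomized sensory neurons, rose by 5.14 and 4.99 on the log2 scale in the ganglia labelled lesion.

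Values in the following are log2 ratios of DRG RNA (Cy5) over a universal mouse reference RNA (Cy3), read by the brightest probe of the gene, and are not comparable between genes. The arrays lie on 3 slides, with uninjured 2, 3 and 4 on the first, uninjured 1 with injured 1, 2 and 5 on the second, and injured 3 and 4 on the third. Slide and injury thus overlap in large part, and the slide that holds both groups has a single uninjured array. With slide as a fixed block, none of the 10 genes passed limma's threshold (5.61% of all genes did) and 2, Xbp1 and Sdf2l1, were at an unadjusted p under 0.05, so that changes are also given within the shared slide. With median centring in place of loess, again none passed in limma (12.6% of all genes did), and the same 2 genes were at an unadjusted p under 0.05. Uninjured 2 was the lowest of its group in 7 of the 10 genes. Injured 5, whose median Cy5 signal (156.3) was the lowest of the 9 arrays, was the lowest of its group in 6. Marker genes of sensory neurons, satellite glia and Schwann cells were well above background on every array. Of these, Isl1, a transcription factor of sensory neurons, was called lower (−0.49, limma adjusted p = 0.000232) and Glul, the glutamine synthetase of satellite glia, higher (0.78, limma adjusted p = 0.000132), and the other 21 were not called.

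**Figure D1:**
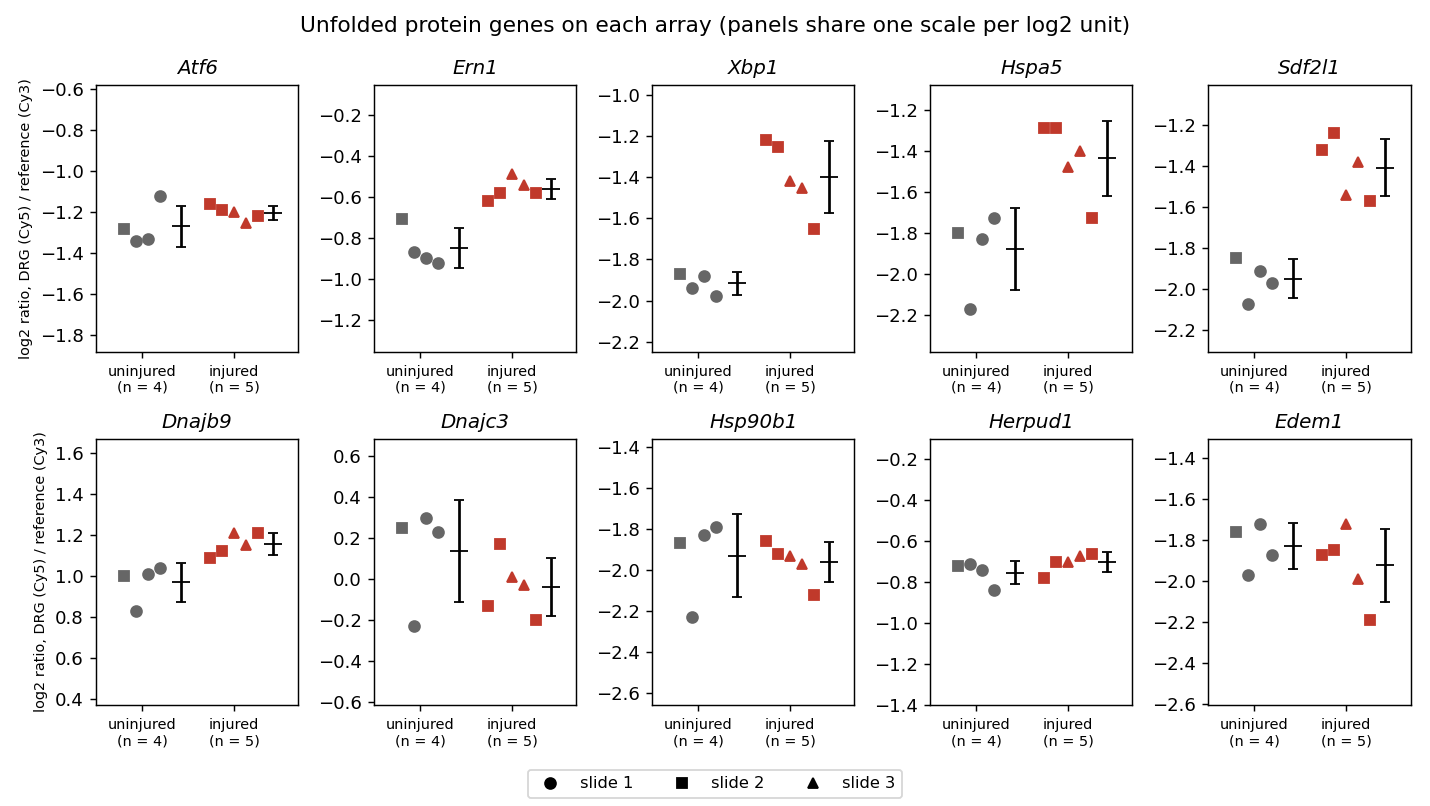
Log2 ratio of DRG over reference RNA (vertical axis) of each of the 10 genes on every array, uninjured in grey and injured in red, with the slide given by the shape of the point. Bars are mean ± SD (n = 4 and n = 5). The injured arrays of Xbp1, Sdf2l1, Ern1 and Dnajb9 lie above all uninjured arrays, whereas in Hspa5 injured 5 (−1.73) meets the top of the uninjured group (−1.73).

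Of the sensors, Ern1 rose. Its probe (NM_023913, chr11:106506675-106506734 on mm7, the build of the probe coordinates in the files) read −0.71, −0.87, −0.90 and −0.92 on uninjured arrays 1 to 4 and −0.62, −0.58, −0.49, −0.54 and −0.58 on injured arrays 1 to 5. The groups did not overlap, and the uninjured array nearest to the injured ones was uninjured 1, which lay on the slide of injured 1, 2 and 5. Ern1 mRNA was higher by 0.29 (SE 0.0612, limma adjusted p = 0.00622, two-sided exact permutation p = 0.00794, the smallest that the 126 splits of the arrays allow). Within the shared slide the difference was 0.11 (with the slide as a fixed block, adjusted p = 0.552, range over the 23 alternatives 0.00069 to 0.552), below the 95% interval of the fit over all arrays, 0.15 to 0.42.

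Atf6, the other sensor of these branches, gave different readings on its probes. The brighter probe (chr1:170684024-170684083) read −1.28, −1.34, −1.33 and −1.12 in uninjured and −1.16, −1.19, −1.20, −1.25 and −1.22 in injured ganglia. The groups overlapped through uninjured 4, and the change of 0.06 (SE 0.0600, adjusted p = 0.488) did not pass. The dimmer probe (chr1:170685339-170685398) read −1.80, −1.62, −1.71 and −1.65 in uninjured and −1.46, −1.40, −1.52, −1.36 and −1.38 in injured ganglia. Here the groups did not overlap, and the change was 0.27 (SE 0.0614, adjusted p = 0.00928 in the fit over all probes). The changes of the probes differed by 0.21, which did not pass after adjustment over the 7 such differences tested (two-sided exact permutation p = 0.0397, adjusted 0.0694). When the probes of a gene were averaged, Atf6 was called higher, by 0.17 (limma adjusted p = 0.0348, range over the alternatives 0.0348 to 0.932).

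Xbp1, the transcription factor downstream of IRE1, is measured by 1 probe (NM_013842, chr11:5476970-5477029). It read −1.87, −1.94, −1.88 and −1.98 in uninjured ganglia and −1.22, −1.25, −1.42, −1.45 and −1.65 in injured ganglia. The uninjured arrays lay close together (SD 0.0563), the injured arrays were spread more widely (SD 0.175), and the groups did not overlap. Xbp1 mRNA rose by 0.52, or 1.43-fold (SE 0.0884, 95% interval 0.32 to 0.71, limma adjusted p = 0.0018, exact permutation p = 0.0159). Within the shared slide the rise was of like size, 0.49, but did not pass once the slide was a fixed block (adjusted p = 0.137, range over the alternatives 0.000228 to 0.147).

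Among the chaperones, Hspa5 encodes BiP, the abundant HSP70 of the ER lumen that binds the sensors in resting cells. Its probe (NM_022310, chr2:34783421-34783480) read −1.80, −2.17, −1.83 and −1.73 in uninjured and −1.29, −1.29, −1.48, −1.40 and −1.73 in injured ganglia. Injured arrays 1 to 4 lay above all uninjured arrays and injured 5 did not. Hspa5 mRNA rose by 0.44, or 1.36-fold (SE 0.114, 95% interval 0.19 to 0.69, limma adjusted p = 0.0161, exact permutation p = 0.0238). Without injured 5 the rise was 0.52, without uninjured 2 it was 0.35, and within the shared slide it was 0.36 (with the slide as a fixed block, adjusted p = 0.39, range over the alternatives 0.0023 to 0.39). With injured 2 and 4 left out together, a choice made after seeing the data because muscle genes were raised on them, it was 0.38 and no longer passed (adjusted p = 0.102).

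Hsp90b1, which encodes GRP94, the HSP90 of the ER and a textbook partner of BiP in this response, did not follow it. Its brighter probe (NM_011631, chr10:86249236-86249295) read −1.87, −2.23, −1.83 and −1.79 in uninjured and −1.86, −1.92, −1.93, −1.97 and −2.12 in injured ganglia. The groups overlapped, uninjured 2 being the lowest of all 9 arrays, and the change was −0.03 (95% interval −0.24 to 0.18, limma adjusted p = 0.865). The second probe changed by −0.09 (adjusted p = 0.497 in the fit over all probes). The difference between Hspa5 and Hsp90b1 was nearly the same on the 4 uninjured arrays (SD 0.0314), uninjured 2 included, and on every injured array it was larger. The change of Hspa5 exceeded that of Hsp90b1 by 0.47 (two-sided exact permutation p = 0.00794, adjusted over the 7 differences 0.0278), by 0.46 within the shared slide and by 0.49 with median centring. The pair was chosen after the values were seen, so that its p-values describe it and do not test it. Both promoters hold the element printed above.

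Sdf2l1, an ER-resident partner of BiP and its J proteins, showed the largest change of the set. Its probe (NM_022324, chr16:16680066-16680125) read −1.85, −2.07, −1.91 and −1.97 in uninjured and −1.32, −1.24, −1.54, −1.38 and −1.57 in injured ganglia. The groups did not overlap, and uninjured 1 on the shared slide was again the highest uninjured array. Sdf2l1 mRNA rose by 0.54 (SE 0.0813, 95% interval 0.36 to 0.72, limma adjusted p = 0.000825, exact permutation p = 0.00794). Within the shared slide the rise was 0.47 (with the slide as a fixed block, adjusted p = 0.107, the highest of the alternatives, which reached down to 0.000108).

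Dnajb9 and Dnajc3 encode the J proteins ERdj4 and p58IPK, which stimulate the ATPase of BiP. The brightest probe of Dnajb9 (NM_013760, chr12:42082310-42082369) read 1.00, 0.83, 1.01 and 1.04 in uninjured and 1.09, 1.12, 1.21, 1.15 and 1.21 in injured ganglia. The groups were separated by a narrow gap, between 1.04 and 1.09. The rise of 0.19 (SE 0.0616, limma adjusted p = 0.0482, exact permutation p = 0.00794) passed only just, and it did not pass in 19 of the 23 alternatives (adjusted p 0.0117 to 0.653), among them every fit without 1 array. Within the shared slide it was 0.14. The other probes of Dnajb9 changed by 0.05 and 0.10 with groups that overlapped, and neither passed.

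Dnajc3 has 4 probes, none of which passed. The brightest (NM_008929) read 0.25, −0.23, 0.30 and 0.23 in uninjured and −0.13, 0.17, 0.01, −0.03 and −0.20 in injured ganglia. Uninjured 2 lay far below the rest of its group, and the change was −0.17 (95% interval −0.43 to 0.08, limma adjusted p = 0.312). Without uninjured 2 the gene was called lower, at −0.30 (adjusted p = 0.0345, range over the alternatives 0.0345 to 0.798). The other probes changed by −0.14, 0.17 and −0.03.

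The ERAD genes of the set did not pass. Herpud1, whose product scaffolds the ubiquitin ligase complex of the ER membrane, read −0.72, −0.71, −0.74 and −0.84 in uninjured and −0.78, −0.70, −0.70, −0.67 and −0.66 in injured ganglia (NM_022331, chr8:92984261-92984320). The groups overlapped within a narrow band. The change was 0.05 (95% interval −0.07 to 0.17, limma adjusted p = 0.528), and the interval leaves out a change as large as that of Sdf2l1. The change of Sdf2l1, the largest of the set, exceeded that of Herpud1 by 0.49 (exact permutation p = 0.00794, adjusted 0.0278). This pair was chosen after the values were seen, and the adjustment covers only the 7 chosen differences, so that its p-values describe the pair and do not test it. Edem1, a lectin-like protein that hands misfolded glycoproteins to ERAD, read −1.76, −1.97, −1.72 and −1.87 in uninjured and −1.87, −1.85, −1.72, −1.99 and −2.19 in injured ganglia (NM_138677). The groups overlapped and the change was −0.09 (limma adjusted p = 0.521). Its other probes changed by 0.22 and −0.12, and neither passed. The first of these differed from the brightest probe by 0.32 in its change (exact permutation p = 0.0873, adjusted 0.122).

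Over all 19 probes of the 10 genes, 5 were called higher and none lower, beside 23.5% of the 31186 probes tested. They were those of Hspa5, Xbp1, Ern1 and Sdf2l1 and the dimmer probe of Atf6, and the brightest Dnajb9 probe did not pass in this fit (limma adjusted p = 0.0531). In both channels, all 19 were well above background on each of the 9 arrays, and none was saturated. In the Cy3 channel, which holds the same reference RNA on every array, none of the 10 genes was called (log2 differences −0.05 to 0.06) and 33 of all genes were.

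**Figure D2:**
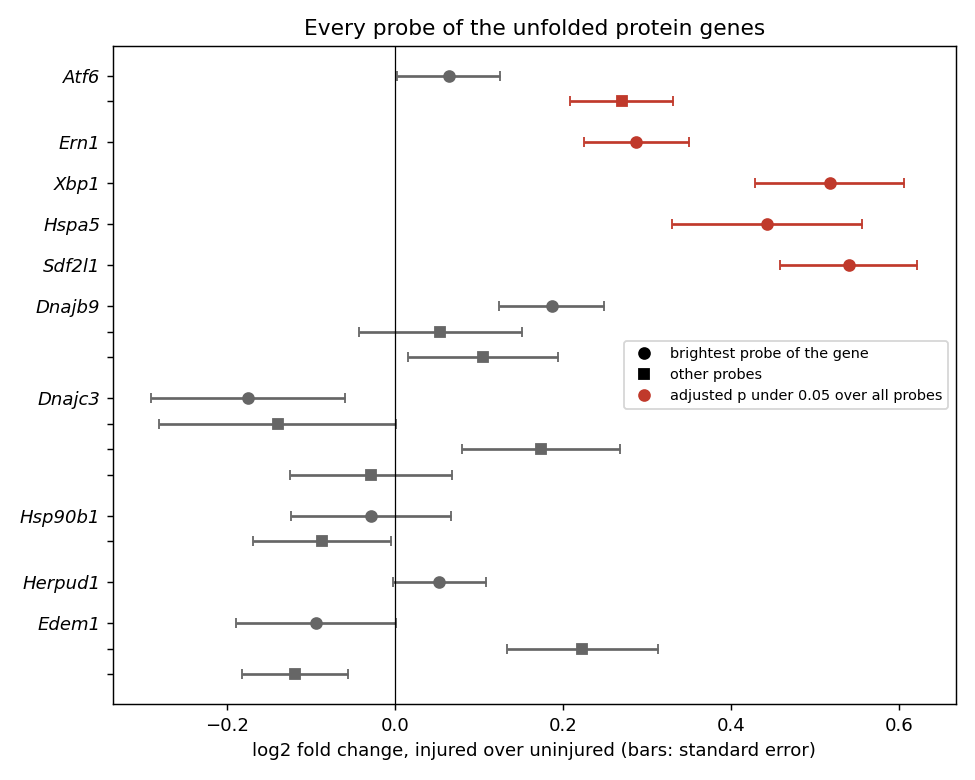
Log2 fold change of injured over uninjured ganglia (horizontal axis) for each of the 19 probes, with standard errors, in red where the adjusted p over all probes was under 0.05. Circles are the brightest probe of a gene and squares the others. The probes of Atf6 are at 0.06 and 0.27 and those of Edem1 at −0.09, 0.22 and −0.12.

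The level changes were set beside the PERK branch, listed as Eif2ak3, Atf4, Ddit3, Chac1, Trib3, Ppp1r15a, Ppp1r15b, Eif4ebp1, Asns and Sesn2. Of these 10 genes 8 were called higher and none lower, beside 11.5% and 13.9% of all genes tested, and their median was 0.87. In the list 6 rose by more than 1.5-fold, against none of the ATF6 and XBP1 genes and 6.52% of all genes in either direction. By qPCR in DRG at an earlier time after nerve crush, the study found that Ddit3 and Ppp1r15a rose independently of ATF4. In its time course after crush, both mRNAs were raised at first and had fallen close to baseline by the second day. Here, in samples labelled 3 days after transection, both were called higher. Several genes of the PERK list were named by the study from these samples, so that their count is not independent evidence of direction. Chac1, a glutathione-degrading enzyme and target of ATF4, had the largest rise, from −1.78 ± 0.125 (SD, n = 4) to 0.20 ± 0.202 (SD, n = 5), by 1.98 (adjusted p = 7.7e-07). Ppp1r15a, which encodes the GADD34 subunit that reverses eIF2α phosphorylation, rose by 1.11, and Eif4ebp1, a repressor of translation initiation, rose from −4.15 to −3.05. The transcription factors Ddit3 (CHOP) and Atf4 rose by 0.70 and 0.58. Eif2ak3, which encodes PERK itself, was at 0.27 (adjusted p = 0.129, range over the alternatives 0.0064 to 0.713) and did not pass, but without injured 5 it was at 0.37 and did. The study, by contrast, names Eif2ak3 among the genes raised on its arrays after nerve injury. It also reports a rise by qPCR in DRG at the earlier time after nerve crush. With slide as a fixed block, 6 of the 10 still passed, Chac1, Ppp1r15a, Eif4ebp1, Sesn2, Trib3 and Ddit3.

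Of the PERK list only Ddit3 was set gene against gene beside Xbp1 and Hspa5, in pairs chosen after the values were seen. Neither difference passed, which with 4 and 5 arrays does not show that the changes were alike. The other genes of the list, with changes from 0.20 (Ppp1r15b) to 1.98 (Chac1), were not compared. The change of Xbp1 minus that of Ddit3 was −0.19 (exact permutation p = 0.246, adjusted 0.246), and that of Hspa5 minus that of Ddit3 was −0.26 (exact permutation p = 0.167, adjusted 0.194). Across arrays the difference between Xbp1 and Ddit3 ran from −0.88 to −0.69 in uninjured and from −1.42 to −0.72 in injured ganglia, so that the groups overlapped. The change of Xbp1 exceeded that of the brighter Atf6 probe by 0.45 (exact permutation p = 0.0159, adjusted 0.037), a pair also chosen after the values were seen. Here too the p-values describe the pair and do not test it. The dimmer Atf6 probe, which rose by 0.27, was not set against Xbp1, so that the difference holds for the brighter probe only.

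**Figure D3:**
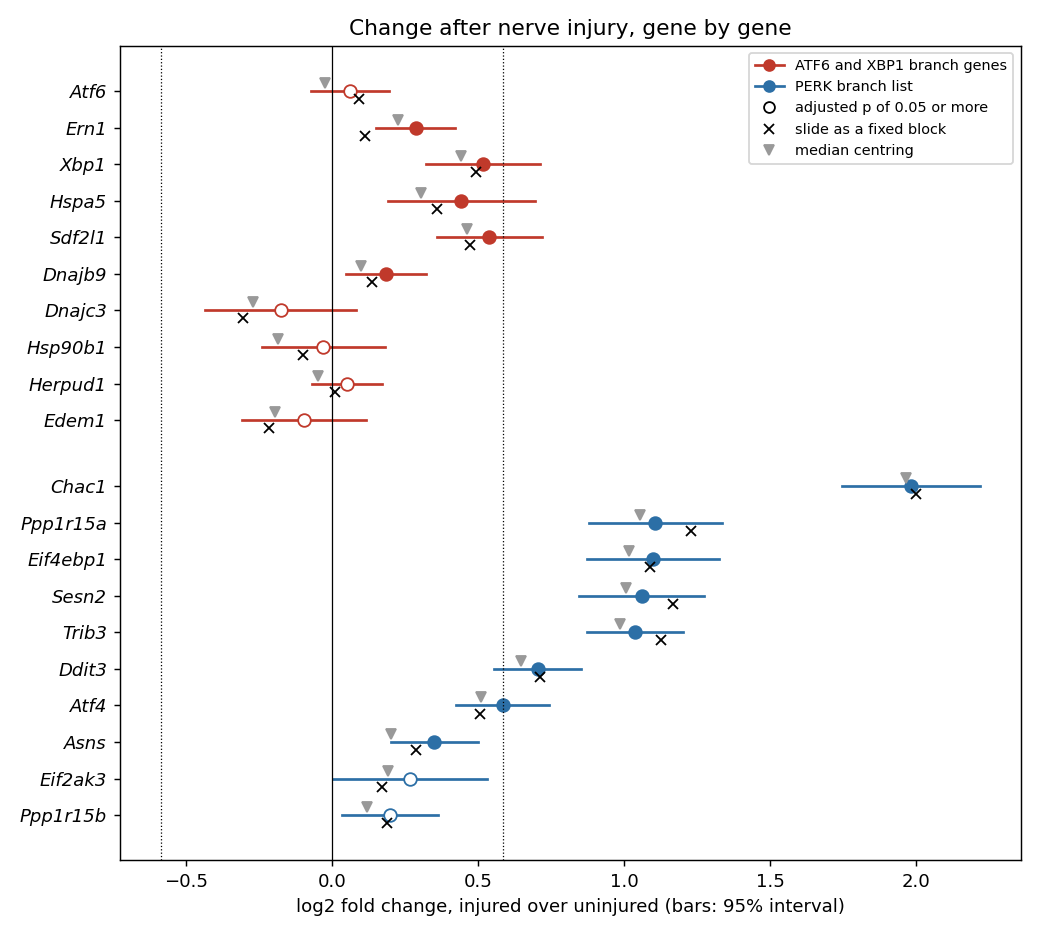
Log2 fold change of injured over uninjured ganglia (horizontal axis) with 95% intervals for the 10 ATF6 and XBP1 branch genes (red) and the PERK branch list (blue). Filled circles passed the adjusted p of 0.05, crosses give the value with slide as a fixed block, triangles that with median centring, and dotted lines mark 1.5-fold. The red values end at 0.54, whereas the blue ones reach 1.98.

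Of 69 genes of ER folding, degradation and export outside the set, in 4 lists, 12 were called higher and 1 lower, beside 11.5% and 13.9% of all genes tested, and their median was 0.07. Among 20 chaperones and folding enzymes, P4hb (a protein disulfide isomerase) rose by 0.34, Ero1a (an oxidase that recharges it) by 0.30 and Calr (calreticulin) by 0.24, and Uggt1, which senses the folding of glycoproteins, fell by 0.29. The other 16 lay between −0.18 and 0.24, and the median was 0.01. Without 1 array, the calls of Calr, P4hb and Uggt1 were lost in 8, 6 and 2 of the 9 fits. Of 16 further ERAD genes, Ube2g2, a ubiquitin-conjugating enzyme, rose by 0.27 and the other 15 did not pass.

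Among 13 partners of the sensors and related factors, Creb3l4 rose by 0.48, Creb3 by 0.41 and Tmbim6, an ER membrane protein, by 0.34. Creb3 and Creb3l4 are ER- or Golgi-anchored transcription factors of the same general build as ATF6, released by the same kind of cleavage. Creb3 read between 0.65 and 0.77 on uninjured and between 1.08 and 1.17 on injured arrays, which left a clear gap between the groups. Its rise (SE 0.0527, limma adjusted p = 0.000292) passed with slide as a fixed block as well (0.47, adjusted p = 0.0368, range over the alternatives 5.3e-05 to 0.14), as none of the 10 genes of the set did. With median centring Creb3 did not pass (0.33, limma adjusted p = 0.14), whereas Creb3l4 did (0.44, limma adjusted p = 0.0399). Sec61a1, named below, also passed with slide as a fixed block (0.51). The closest relative of Atf6, Atf6b, was at 0.06 (adjusted p = 0.74), and the genes of the site-1 and site-2 proteases, Mbtps1 and Mbtps2, were at 0.10 (adjusted p = 0.277) and 0.18 (adjusted p = 0.0843). Mbtps2 passed in 4 of its 22 alternatives (adjusted p 0.0188 to 0.961). Of 20 genes of the translocon and ER export 5 rose, led by Sec24d (a COPII coat subunit, 0.49), Sec61g (0.26) and Sec61a1 (0.25), the latter pair encoding subunits of the channel that admits new proteins. Without 1 array, the calls of Sec61a1, Sec61g and Tmbim6 were lost in 8, 6 and 2 of the 9 fits.

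The element of Hspa5 was also in the promoters of 7 of the 53 genes of these lists with a window, namely Calr, Canx, Pdia6, Ero1b, Creld2, Syvn1 and Derl3, and in none of 8 of the PERK list. Of these 7, Calr was called higher, where 11.5% of all genes tested were. Creld2 was at 0.24 (adjusted p = 0.108) and Syvn1, an ERAD ubiquitin ligase, at 0.15 (adjusted p = 0.0848), both named after their values were seen. Of the 4 genes of the set that hold either form 1 was called higher, and of the 5 without one 4 were. Whether the element goes with the change was not tested, and these genes are too few to show it.

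**Figure D4:**
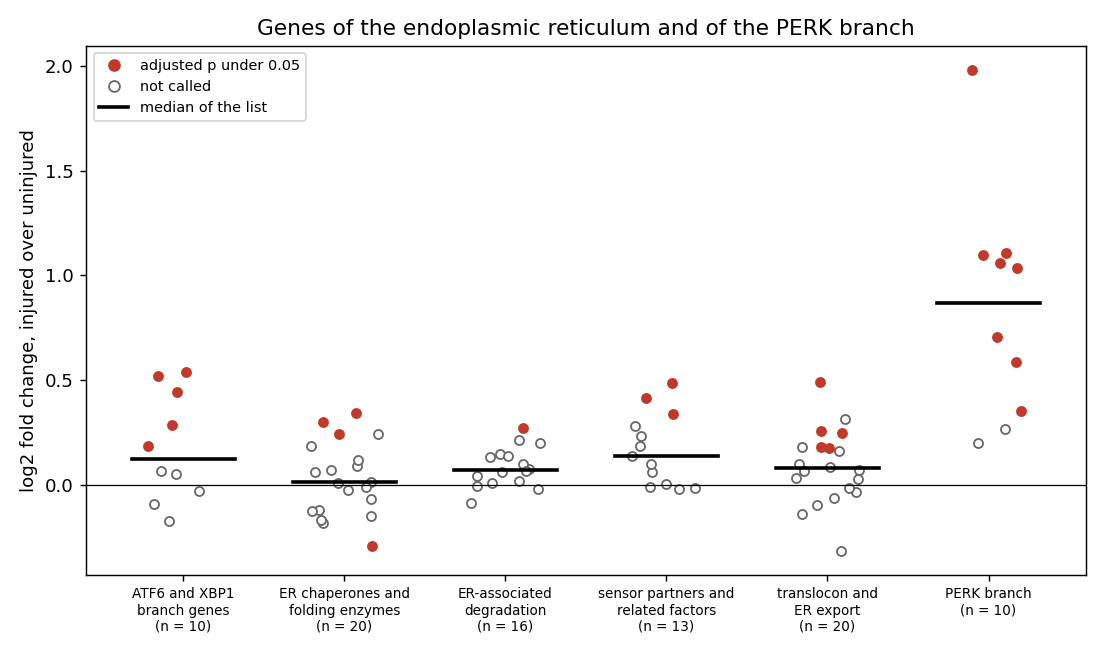
Log2 fold change of injured over uninjured ganglia (vertical axis) of every gene of the set, of 4 lists of ER genes and of the PERK list, with called genes in red and the median of each list as a bar. The medians are 0.13 for the set, 0.01, 0.07, 0.14 and 0.08 for the ER lists, and 0.87 for the PERK list.

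Markers of other cells were read as well, beside 11.5% of all genes tested called higher and 13.9% lower. The counts of these short lists were not tested against those shares. Of 10 macrophage markers 3 were called higher (Aif1, Cd14 and Itgam), and the mean of the list, relative to the uninjured mean, ran from −0.39 to 0.34 on uninjured and from 0.13 to 1.01 on injured arrays. XBP1 is known to be abundant in plasma cells. Of 9 B and plasma cell markers 2 were called higher, Sdc1 (1.94) and Prdm1 (0.37), with the mean of the list from −0.11 to 0.25 on uninjured and from 0.18 to 0.70 on injured arrays. Their defining genes Jchain (0.09), Mzb1 (0.14) and Cd79a (0.07) did not pass. Skeletal muscle markers, none of which was called, were raised on injured 2 (mean 1.96), injured 4 (3.45) and, less so, injured 5 (0.38). The mean of 4 red blood cell markers, none of which was called, ran from −0.20 to 0.27 on uninjured and from −0.03 to 1.42 on injured arrays. Of 6 markers of dividing cells Birc5 was called higher (0.36), with the mean of the list from −0.12 to 0.06 and from 0.02 to 0.52. None of 6 fibroblast markers was called. The part of these cells in the changes of the set was not tested.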

How the data were processed

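The arrays were 2-colour Agilent arrays with DRG RNA in Cy5 and reference RNA in Cy3, with no dye swap. The deposited intensities, read by Agilent Feature Extraction 10.5.1.1, give for each channel the mean of a spot and the median of its local background. The log10 ratios in the same files are, per the file headers, background-corrected and dye-normalized by Agilent. The authors' processed table holds log2 ratios of Cy5 over Cy3, and served with the log10 ratios as an alternative.

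Intensities were handled in limma 3.58.1 (R 4.3.3). Spots flagged as non-uniform were left out, since on injured 2 spots with Cy5 far below local background (down to −9047) moved the fitted background mean to −358 and the slope against the authors' values to 0.823, against 1.01 without them. Then followed normexp with an offset of 50, loess within each array, a filter for Cy5 well above background on at least 4 arrays (31186 probes, 20898 genes) and the brightest probe per gene. The groups were compared by limma (lmFit and eBayes) with p-values adjusted by Benjamini-Hochberg over all genes, and single values with a two-sided exact permutation test. Precision is limited by the number of arrays. The procedure was tested on simulated data, in which 200 of 20898 genes were changed. It called 97% of those changed by 1 on the log2 scale and 69% of those changed by 0.5, and false calls made up 5.14%. In the real data 5308 genes were called, so that these shares are not the error rate of the calls reported here.

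The set and the lists were chosen with earlier results of these data known. Named genes are the whole set, up to 3 called genes with the largest rise and 3 with the largest fall of each list, Eif2ak3, Atf4, Ddit3, Mbtps1, Mbtps2, Atf6b, Creb3, Atf3 and Sprr1a, and markers that moved. The 7 differences between pairs of genes or probes, and Creld2 and Syvn1, were chosen after the values were seen. Lists are described by counts and medians, with no set test. Promoters were searched with Python 3.11.15 in RefSeq sequence (GRCm38.p6), and figures drawn with matplotlib 3.10.9. The other experiments of the study were not analysed here.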

Additional observations from a re-analysis of the deposited data

Results flagged for a closer look

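Of 64 groups of arrays of the named genes examined for 1 array far from the others, 5 were marked, and chance marks about 1 group in 20. On uninjured 2 the log2 ratio of Hsp90b1 was −2.23 (the nearest uninjured array was at −1.87), that of Dnajc3 −0.23 (nearest 0.23) and that of Uggt1 1.05 (nearest 0.79). On uninjured 1 Sec61a1 was at −0.98 (nearest −0.73), and on injured 1 Herpud1 was at −0.78 (nearest −0.70).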

How the results depend on the processing

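The count of the set called higher, 5, was 0 with median centring in place of loess and 0 with slide as a fixed block. It was 3 (Xbp1, Ern1 and Sdf2l1) without injured 2 and 4, chosen after seeing the data. It was 4, with Dnajb9 lost, without each array in turn, with all spots kept, with an offset of 0 and with Agilent's own ratio. The same 4 were called with the authors' values, with Cy5 alone and with no filter on dim probes. In the other alternatives it was 5, with Atf6 in place of Dnajb9 when probes were averaged. The count called lower was 0 to 1 (Dnajc3 without uninjured 2). All genes called numbered 2640 with median centring, 1172 with slide as a fixed block, 2996 without injured 2 and 4, and 4013 to 5449 without 1 array. Of the 69 ER genes outside the set, 12 higher and 1 lower became 6 and 1 with all spots kept and with an offset of 0, 1 and 0 with median centring, 7 and 0 with Agilent's own ratio and with Cy5 alone, 2 and 0 with slide as a fixed block, 21 and 2 with slide as a random block, and 4 and 0 without injured 2 and 4. The lower count was 2 with the authors' values, with the filter in both channels, with array weights and with the average of probes, and 0 to 3 (higher 6 to 13) without 1 array. The PERK count called higher, 8, was 6 with median centring and with slide as a fixed block, 7 with the authors' values and with Cy5 alone, 9 with the average of probes, 10 with slide as a random block and with array weights, 8 to 9 without 1 array, and 8 in the other alternatives. Changes that turned sign were those of Hsp90b1 (0.0074 with Agilent's ratio, −0.13 to 0.016 without 1 array), Edem1 (0.0028 with the average of probes), Atf6b (−0.026 with median centring, −0.019 to 0.11 without 1 array) and, with median centring, Atf6 (−0.023), Herpud1 (−0.047) and Mbtps1 (−0.031). The cause of these shifts was not tested. Sdf2l1, Xbp1 and Ern1 passed in all alternatives except the fixed slide block and median centring. No paired analysis was possible because no label ties samples of the groups to each other, and replicate numbers only name the arrays.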
